A study of Rattus norvegicus with 8 samples.

Results

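Red blood cell genes were followed in rat ovary with 7 members: Hba-a2 and Hbb, Alas2, Slc4a1, Ahsp, Rhag and Epb42. Members were taken by gene name as the array files give it, which found all 7 among 26204 names, on 10 of the 30367 probes of the array. Hba-a2, Hbb and Ahsp had 2 probes each and the other 4 genes had 1 probe each. The study used 8 one-colour arrays of whole ovary. The 4 arrays labelled PMSG came from female rats given 50 IU of pregnant mare serum gonadotropin, a hormone that drives follicle growth, under the skin at 26 days of age, carried in 0.2 ml of a phosphate buffer with albumin. The 4 arrays labelled control came from females given 0.2 ml of that buffer alone, although their titles call them untreated. Ovaries of both groups were taken at 48 h, at 28 days of age. No strain is named and no statement says whether an array holds 1 animal or a pool, so p-values measure the spread between these samples, which may be technical.

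Red blood cells carry oxygen on hemoglobin, a protein of alpha and beta globin chains that each hold a heme group. Rat reticulocytes, the young red cells in blood, still hold globin messenger RNA, and the cells lose it as they mature. Young rats have many reticulocytes, so a blood-filled organ such as the ovary carries their RNA into an extract of whole tissue. In whole tissue, fewer red cells and less RNA per cell cannot be told apart.

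The arrays gave a 75th-percentile signal of 769 to 1103 units and found 80.8% to 84.6% of probes well above background. No spot of any member was saturated. All 9 genes of the ovary marker list were well above background on all 8 arrays. For Cyp11a1, Amh and Star, the direction ran against the labels as textbook physiology would have them. Cyp11a1, which makes the first steroid from cholesterol and is raised by gonadotropin, was lower by 3.36 log2 units in the arrays labelled PMSG (limma adjusted p = 2.32e-04). Amh, a product of small growing follicles, was higher by 3.03 (limma adjusted p = 2.61e-04). Star, which brings cholesterol to that enzyme, was lower by 2.75 (limma adjusted p = 0.00541). Of the rest of the list, Zp3 was higher by 1.94 (limma adjusted p = 0.00103) and Gdf9 by 2.05 (limma adjusted p = 5.92e-04). Fshr at 0.34, Inha at -0.39, Foxl2 at 0.19 and Nr5a1 at -0.36 did not pass. Whether the labels were exchanged cannot be told from these data, and an exchange would turn the sign of every difference below. Every direction is therefore given between arrays by their label.

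By the probe that stands for each gene, the brightest, Alas2 alone passed the threshold, and it was lower in all 4 arrays labelled PMSG. The 5′ probe of Hbb also passed, at -0.97, and lost that call under some alternatives. The 3′ probes of both globin genes did not pass the threshold, at -0.20 for Hba-a2 and -0.13 for Hbb. Slc4a1 and Ahsp had lower means in the arrays labelled PMSG, but 1 control array, array 3, carried much of that. Rhag and Epb42 lay close to the detection limit. The scale throughout is log2 signal minus that array's 75th percentile, and differences are PMSG minus control from a limma fit over all 25303 probes well above background on at least 4 arrays, with Benjamini-Hochberg adjustment.

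The sequences that follow are shown because each globin gene name had a probe near a 3′ end and another near a 5′ end. Hbb passed the threshold only by its 5′ probe, and Hba-a2 by neither. By their stated positions the Hbb probes may not read the same transcript. The lines give the parts of those probes in the array files. In the 3′ probes the capitals mark AATAAA, the signal at which a transcript is cut and given its poly(A) tail. In the 5′ probes the capitals mark the start codon, and the sequence runs from there.
Hba-a2, 3′ probe: tcttggtctttgAATAAAgcctgagtagga
Hbb, 3′ probe: atctgtcctactAATAAAaggca
Hba-a2, 5′ probe: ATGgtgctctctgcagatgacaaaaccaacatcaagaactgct
Hbb, 5′ probe: ATGgtgcacctga

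Promoters are shown for the globin genes and Alas2, because red cell genes are classically driven by GATA1 and KLF1. RefSeq promoter sequences of the GRCr8 build were matched by accession for 5 of the 7 genes. A GATA site was searched as AGATAA or as AGATAG, and likewise as TGATAA or as TGATAG, and a CACCC box as CCNCACCC, on both strands, in the 250 bases before each start. Of these 5 promoters, 4 held a GATA site and 2 held a CACCC box. Over all 33469 promoters of the same length, 27% held the first and 13.6% the second. Capitals mark the matches, and each line gives the 180 bases nearest the start in the direction of the gene.
Hba-a2 (RefSeq symbol Hba-a1, GRCr8 chr10:15842581-15842760, minus strand): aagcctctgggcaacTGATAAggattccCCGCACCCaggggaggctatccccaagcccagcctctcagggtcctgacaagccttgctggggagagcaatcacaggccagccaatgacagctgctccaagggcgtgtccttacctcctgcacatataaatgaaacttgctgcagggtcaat
Hbb (GRCr8 chr1:167663722-167663901, minus strand): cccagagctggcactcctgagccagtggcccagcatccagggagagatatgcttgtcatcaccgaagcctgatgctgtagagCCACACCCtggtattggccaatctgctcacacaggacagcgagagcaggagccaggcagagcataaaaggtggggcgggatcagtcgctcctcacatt
Alas2 (GRCr8 chrX:22895270-22895449, plus strand): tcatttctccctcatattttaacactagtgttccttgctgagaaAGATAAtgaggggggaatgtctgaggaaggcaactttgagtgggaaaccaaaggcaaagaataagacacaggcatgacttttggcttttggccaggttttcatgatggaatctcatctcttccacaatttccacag
The Hba-a2 match held a GATA site 165 bases and a CACCC box 152 bases before the start. In Hbb the CACCC box lay 98 bases before the start, and in Alas2 the GATA site lay 136 bases before it. Rhag and Epb42 each held a GATA site, at 31 and 82 bases before the start. These matches are letters in a window and were not tested for binding.

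Alas2 encodes the red-cell form of the first enzyme of heme synthesis. Its probe lies at base 1667 of the transcript, counted from 0 as in the array files (rn4 chrX:39810353-39810412, plus strand). The control arrays gave 1.76, 1.80, 2.49 and 1.63, and the arrays labelled PMSG gave 0.08, 0.69, 0.75 and 0.62. The groups did not overlap, control array 3 was the highest and PMSG array 1 the lowest. The difference was -1.38 ± 0.22 (SE, n = 4 per label), which is 2.61-fold higher in control (limma adjusted p = 0.00225). Without control array 3 it was -1.19 (limma adjusted p = 0.00347). Both rows of the slide gave the same sign, with -0.99 in row 1 and -1.77 in row 2, each row holding 2 arrays of each label. Row 2 holds control array 3 and PMSG array 4, and some other members below changed sign between rows.

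Against the background, 1 of the 7 genes passed the threshold, where 34.2% of all probes tested did. The call in the lower direction was made for 16.6% of all probes and in the higher direction for 17.6%. Scaling by the array median in place of the 75th percentile turned the 4452 higher and 4206 lower calls into 2914 and 5534, and moved the median of all probes from 0.11 to -0.05. By probe, 2 of 10 passed and 9 of 10 had a lower mean in the arrays labelled PMSG. By gene, 6 of 7 had a lower mean. The share of all probes with a lower mean was not counted, and the probes of a gene are not separate results. The groups did not overlap for 1 of 10 probes, against 36.6% of all probes. The median difference was -0.42 over the genes, beside 0.11 over all probes tested. A share of called members below the background is no result about the members as a group.

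**Figure D1:**
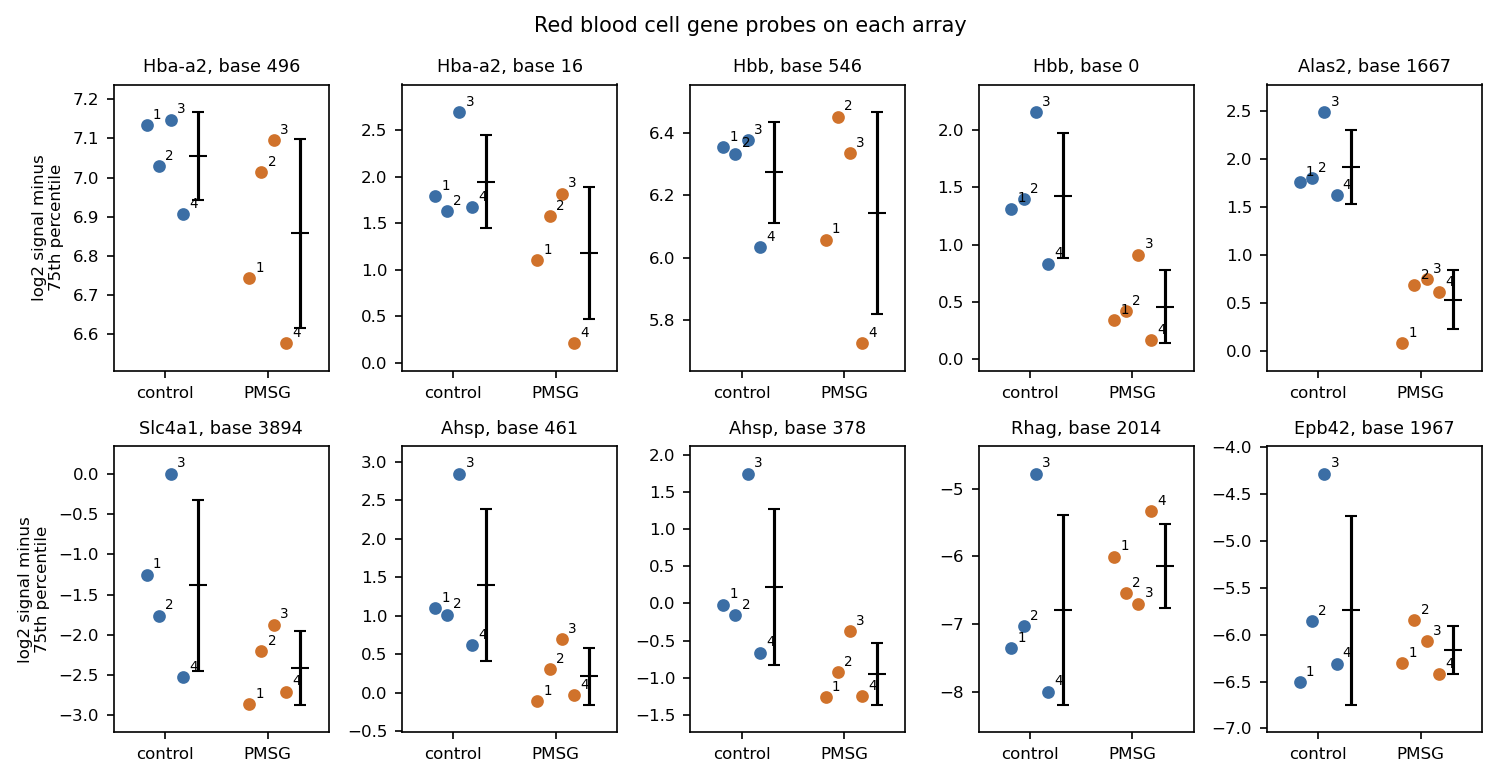
Level of each red blood cell gene probe on every array (y axis, log2 signal minus the array's 75th percentile, with its own range per panel) for the 4 control and 4 PMSG arrays, numbered by replicate, with the mean and SD in black. Control array 3 is the highest control array in all 10 panels, and the groups do not overlap for Alas2.

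Hba-a2 encodes an alpha globin chain. Its 3′ probe, at base 496 (rn4 chr10:15584360-15584419, minus strand), gave 7.13, 7.03, 7.15 and 6.91 in the control arrays. The arrays labelled PMSG gave 6.74, 7.01, 7.10 and 6.58, overlapping the control range, with arrays 1 and 4 the low ones. The difference was -0.20 ± 0.14 (SE), which did not pass the threshold (limma adjusted p = 0.288). Quantile normalization gave -0.39 and a call (limma adjusted p = 0.0186). Median centring gave -0.37 (limma adjusted p = 0.0509) and the mean of both probes -0.48 (limma adjusted p = 0.165), each without a call. PMSG array 3 had the lowest 75th percentile, 769 units. Its unscaled signal of 105135 was near the 105175 of PMSG array 1. On the scale used throughout, the difference was -0.10 without PMSG array 4 and -0.073 without that array and control array 3. Within slide rows it was 0.087 in row 1 and -0.48 in row 2.

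The 5′ probe of Hba-a2, at base 16 (rn4 chr10:15585140-15585199), spread more widely. Control arrays gave 1.79, 1.63, 2.69 and 1.67, with array 3 apart from the other three. Arrays labelled PMSG gave 1.10, 1.57, 1.82 and 0.21, with array 4 lowest and array 3 inside the control range. The difference of -0.77 ± 0.38 (SE) did not pass (limma adjusted p = 0.150). It was -0.45 without PMSG array 4 and -0.20 without that array and control array 3. Within slide rows it was 0.044 in row 1 and -1.59 in row 2. The array files list 2 RefSeq transcripts for this probe, so alpha globin copies could be read together.

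Hbb encodes a beta globin chain. Its 3′ probe, at base 546 (rn4 chr1:161584872-161584931, minus strand), gave 6.35, 6.33, 6.37 and 6.03 in control arrays. In the arrays labelled PMSG it gave 6.06, 6.45, 6.33 and 5.73, so the highest of all 8 arrays was PMSG array 2 and the lowest was PMSG array 4. The difference was -0.13 ± 0.17 (SE; limma adjusted p = 0.571), and it was 0.0077 without PMSG array 4. Within slide rows it was 0.21 in row 1 and -0.47 in row 2. Median centring gave -0.30 (limma adjusted p = 0.166), and the mean of both Hbb probes gave -0.55 (limma adjusted p = 0.0723). The array files list 3 RefSeq transcripts for this probe, and near-identical beta globin genes may share it.

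The 5′ probe of Hbb, at base 0, was the other probe that passed. Its stated position (rn4 chr1:161620134-161620193) lies apart from that of the 3′ probe within the beta globin cluster, so the probes may read different gene copies. It gave 1.32, 1.40, 2.16 and 0.84 in control arrays and 0.34, 0.42, 0.91 and 0.17 in the arrays labelled PMSG. The groups overlapped by 1 array on each side, since PMSG array 3 lay above control array 4. The difference was -0.97 ± 0.28 (SE; limma adjusted p = 0.0302), with -0.45 in slide row 1 and -1.48 in row 2. The call was lost under 7 of 20 alternatives, among them leaving out control array 1 or 2 or PMSG array 1, 2 or 4, with adjusted p from 0.00737 to 0.0715 by linear model over all of them.

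Labelling started from the poly(A) tail, so a 5′ probe is reached only by long products, and the length of the labelled products was not given. Setting each 5′ probe against the 3′ probe with the same gene name gave a change of -0.83 for Hbb between labels. All 4 PMSG arrays lay below all 4 control arrays (exact permutation p = 0.0286, two-sided, the smallest 4 against 4 can give). That p-value is not adjusted for the number of genes compared. Among single probes tested, 36.6% did not overlap between labels, and the share among the transcripts below was not counted. The Hbb probes may read different gene copies, so this change may not lie within the same transcript. The change for Hba-a2 was -0.57, with overlap (exact permutation p = 0.114, two-sided). Over 1931 transcripts with probes at least 300 bases apart the median change was -0.15 (exact permutation p = 0.2, two-sided), with PMSG array 4 lowest at -0.38. Of these transcripts 8.6% had a change at or below that of Hbb and 17.6% at or below that of Hba-a2. Without control array 3 the changes were -0.63 for Hbb and -0.36 for Hba-a2. The 3′ globin probes were much brighter than the 5′ ones, with control means of 7.05 for Hba-a2 and 6.27 for Hbb against 1.95 and 1.43. Their control arrays also spread less, with SDs of 0.11 and 0.16 against 0.50 and 0.55. The parts of RNA quality and of probe brightness in these results were not tested.

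**Figure D2:**
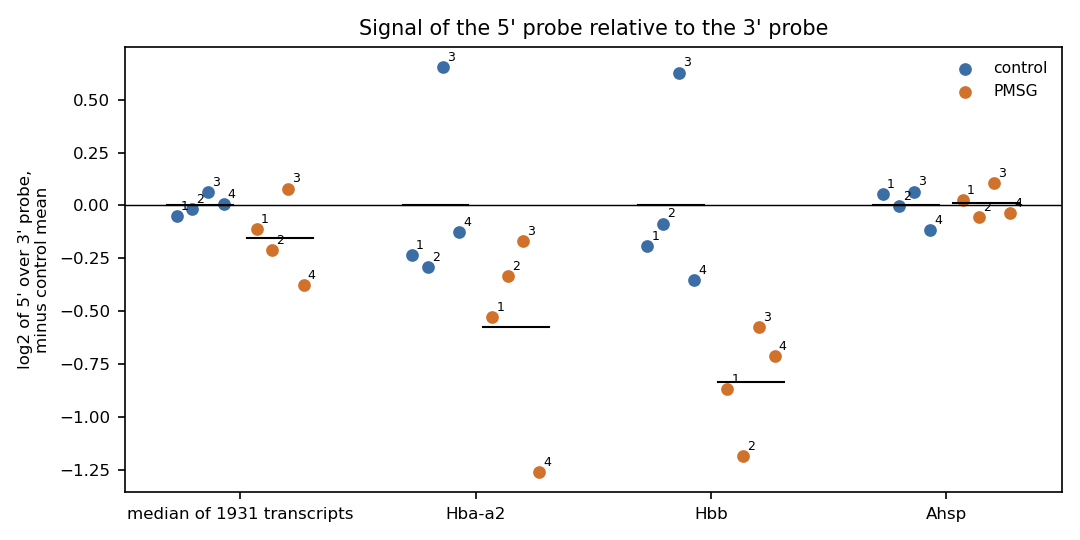
Signal of the 5′ probe over the 3′ probe on each array (y axis, log2, minus the mean of the control arrays) for the median of 1931 transcripts and for Hba-a2, Hbb and Ahsp. Points are arrays numbered by replicate and black lines are label means. The 4 PMSG arrays lie below every control array for Hbb only among these 4 series, and control array 3 is the highest control for all of them. The Ahsp probes lie at bases 378 and 461, closer than the 300 bases asked of the 1931 transcripts, so that series does not compare 2 ends. The Hbb probes may read different gene copies.

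Ahsp encodes the protein that keeps free alpha globin from precipitating. The probe at base 461 (rn4 chr1:187561567-187561626, plus strand) gave 1.10, 1.01, 2.85 and 0.62 in control arrays. The arrays labelled PMSG gave -0.11, 0.30, 0.69 and -0.04, and only PMSG array 3 reached into the control range. Control array 3 was 3.36-fold above the next control array. The difference was -1.18 ± 0.46 (SE; limma adjusted p = 0.0797), and without control array 3 it was -0.70 (limma adjusted p = 0.0568). The probe at base 378 gave -1.17 ± 0.49 (SE; limma adjusted p = 0.0982), and both probes moved together across arrays (r = 0.997 over 8 arrays with label means removed). The first probe's difference was -0.32 in slide row 1 and -2.05 in row 2, which holds control array 3.

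Slc4a1 encodes band 3, the anion exchanger of the red cell membrane. At base 3894 (rn4 chr10:91455352-91455411, minus strand) the control arrays gave -1.25, -1.76, 0.00 and -2.53. The arrays labelled PMSG gave -2.86, -2.20, -1.87 and -2.70, so control array 4 lay among them. The difference of -1.03 ± 0.50 (SE) did not pass (limma adjusted p = 0.147). It was -0.56 without control array 3, and within slide rows it was 0.11 in row 1 and -2.16 in row 2.

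Epb42 encodes protein 4.2, which ties band 3 to the membrane skeleton. At base 1967 (rn4 chr3:107808613-107808672) it gave -6.51, -5.85, -4.28 and -6.31 in control arrays and -6.30, -5.85, -6.07 and -6.42 in the arrays labelled PMSG. It was above background on 3 arrays of each label. The difference was -0.42 ± 0.45 (SE; limma adjusted p = 0.485) and became 0.064 without control array 3, the array that stood apart. Within slide rows it was 0.12 in row 1 and -0.97 in row 2.

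Rhag encodes the Rh-associated glycoprotein of the red cell surface. At base 2014 (rn4 chr9:15940935-15940994) it gave -7.36, -7.03, -4.78 and -8.00 in control arrays. The arrays labelled PMSG gave -6.01, -6.55, -6.70 and -5.33, above all control arrays other than array 3. It was above background on 1 control array and on 3 PMSG arrays. The difference was 0.65 ± 0.66 (SE; limma adjusted p = 0.464), with 0.89 in slide row 1 and 0.40 in row 2. Without control array 3 it was 1.32 (limma adjusted p = 0.0369), and then no remaining control array was above background.

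**Figure D3:**
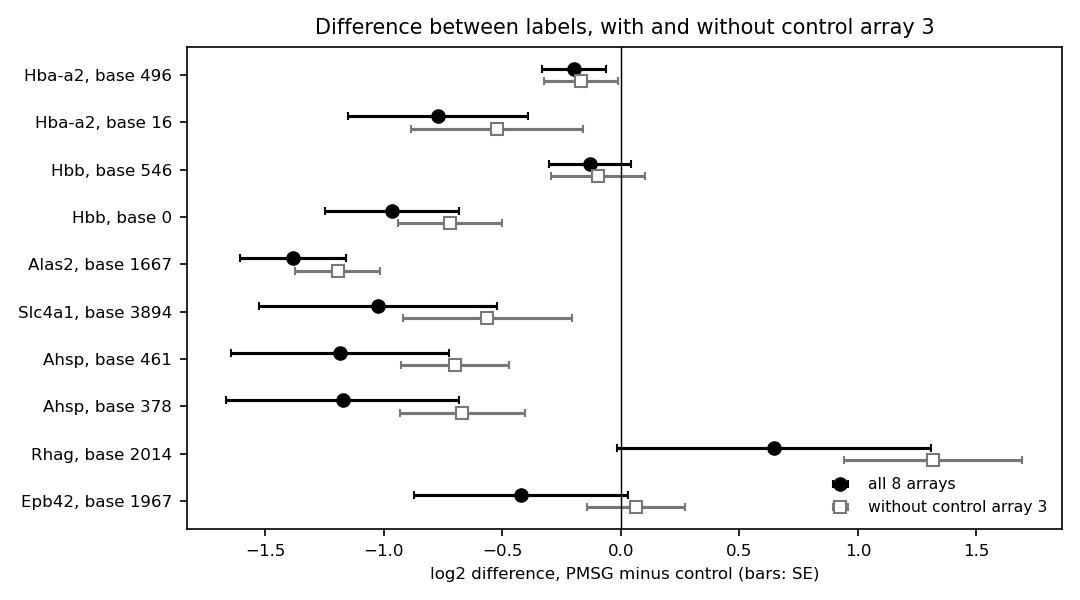
Difference between labels for each probe (x axis, log2, PMSG minus control, bars are SE) with all 8 arrays (filled circles) and without control array 3 (open squares). Alas2 stays furthest below 0 at -1.38 and -1.19, Ahsp and Slc4a1 move towards 0 without control array 3, and Rhag moves away from it.

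Control array 3 was the highest control array for 10 of 10 member probes, against 29.6% of all probes tested. It exceeded every other control array by at least 1 log2 unit on 5 member probes, which 162 of 25303 probes did (0.64%). These were Slc4a1, both Ahsp probes, Rhag and Epb42. The Ahsp probes are not separate results, and Rhag was below background on the other control arrays, so its gap is partly set by background. Control array 4 was the lowest control array on 8 of 10, against 31.3% of all probes. Among the arrays labelled PMSG, array 3 was highest on 7 of 10, against 37.0% of all probes. PMSG array 4 was lowest on 5 of 10, which is near its 47.3% over all probes. The mean over members was 0.18, 0.22, 1.40 and -0.24 in control arrays and -0.34, -0.02, 0.03 and -0.22 in the arrays labelled PMSG, so the groups overlap with or without control array 3. Control array 3 had the most outlier spots of all arrays, 1073, and PMSG array 4 the fewest, 448. The median CV of signal stated in the array files was highest on these arrays, at 5.82% and 5.71%. It was 2.95% to 4.34% on the others. The part of array quality in these results was not tested.

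Some lists of other cell types also had control array 3 as the highest control array, and others did not. Control array 3 was the highest control array for 10 of 10 adipocyte genes, whose median was 1.83 above the other control arrays, and for 5 of 6 leukocyte genes. It was so for 4 of 6 platelet, 3 of 9 endothelial, 1 of 6 neutrophil, 1 of 5 lymphocyte and 0 of 9 ovary genes. The summed level of the adipocyte list ran from 3.36 to 6.42 in control arrays, with array 3 the highest, and from 4.89 to 6.57 in the arrays labelled PMSG. All 10 adipocyte and all 6 leukocyte genes were above background on all 8 arrays, so none was at the limit. The adipocyte list was added after the data were seen. The part of other tissue in the red cell values was not tested.

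With label means removed, members were compared with Hba-a2 across the 8 arrays. The closest to Hba-a2 was Hbb, with r = 0.944 (exact permutation p within labels 0.0122, adjusted over 6 genes 0.0521) and rho = 0.976 (adjusted p = 0.0417, exact permutation). Without PMSG arrays 4 and 1, the 2 farthest from the median of Hba-a2, r was 0.771. Slc4a1 had r = 0.669 (exact permutation, adjusted p = 0.0521), with rho = 0.786 (adjusted p = 0.0486, exact permutation), and 0.885 without those arrays. Ahsp had r = 0.562 (exact permutation, adjusted p = 0.0868), with rho = 0.667 (adjusted p = 0.0486, exact permutation), and 0.717 without them. For Alas2 r was 0.488 (exact permutation, adjusted p = 0.294), with rho = 0.643 (adjusted p = 0.127, exact permutation), and 0.661 without them. For Epb42 r was 0.391 (exact permutation, adjusted p = 0.214), with rho = 0.643 (adjusted p = 0.0938, exact permutation), and 0.433 without them. Rhag had r = -0.09 (exact permutation, adjusted p = 0.774) and rho = -0.12 (adjusted p = 0.767, exact permutation), and its r was 0.657 without them. By Pearson's r, no gene passed the adjusted threshold.

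The 21 pairs among the 7 genes had a median r of 0.659, and 19 were above 0. Pairs among every 10th probe tested, 2531 in all, had a median r of 0.0725. The highest pair was Slc4a1 with Ahsp at 0.955, and Ahsp with Epb42 reached 0.914. Without control array 3 the median fell to 0.490 with 15 of 21 pairs above 0, and without PMSG array 4 it was 0.786. These values share arrays and scaling and are given as a description.

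**Figure D4:**
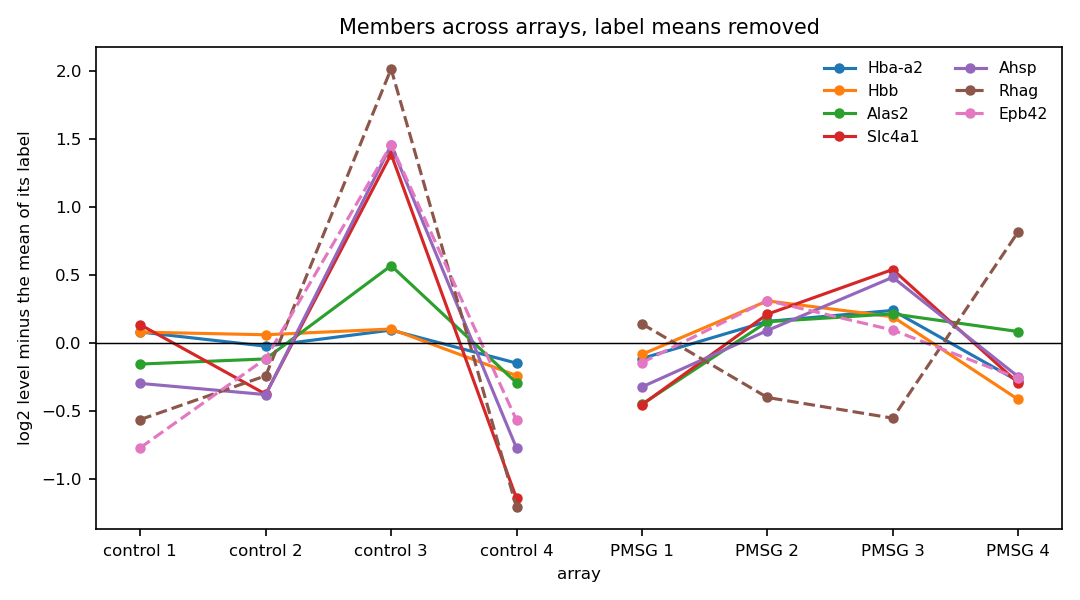
Level of each member on each array minus the mean of its label (y axis, log2), with Rhag and Epb42 dashed because they lay near background. Control array 3 is the highest control for all 7 genes, and Rhag departs from the others on PMSG array 4.

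Among 6179 named genes above background on all arrays and with a within-label SD at or above the median of all probes, 0.244, the 8 whose pattern was most like the member mean were Tmem252, Rnf144b, Gsc, Add2, Cd52, Tmem63c, Alox15 and Itga7. Their r over the 8 arrays, label means removed, ran from 0.935 for Itga7 to 0.987 for Tmem252. Control array 3, the peak of the member mean, was the highest control array for 8 of 8, which the choice by likeness fixes. Add2, which encodes the beta subunit of adducin in the red cell membrane skeleton, had r = 0.960 and a difference of -0.74 (limma adjusted p = 0.171). Alox15, a lipoxygenase found in reticulocytes but not only there, had r = 0.953 and was lower by 1.45 in the arrays labelled PMSG (limma adjusted p = 0.0418). Rnf144b and Gsc were higher in those arrays, by 1.41 and 1.71. Tmem252 gave -1.03, Cd52 -1.04, Tmem63c 0.015 and Itga7 0.56, and none of these passed. Likeness to the member mean does not make a gene particular to red cells.

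Of 5 other globin genes tested, 0 passed in either direction by limma (at an unadjusted p under 0.05, 1 was lower and 1 higher). Control array 3 was the highest control for 5 of 5, and the median difference was -0.33. Hbb-b1 gave -0.33 (adjusted p = 0.253), LOC689064 -0.66 (adjusted p = 0.0802) and Hbe2 -0.46 (adjusted p = 0.149), all by limma. The control means of these genes were 6.75, 6.22 and 5.70, beside 6.27 for the Hbb 3′ probe. Whether their probes read the same RNA was not tested, so the 5 of 5 may not be separate results. Hbz, an embryonic alpha-like chain, gave 0.80 (limma adjusted p = 0.0678), and Hbg1 gave 0.03. Hbe1 and LOC287167 were not above background on any array.

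Of 14 heme synthesis and iron genes other than Alas2, 8 were lower and 0 higher by limma (9 and 1 at an unadjusted p under 0.05), with a median difference of -0.53. Without control array 3, 5 were lower. The counts of this and every other list stand beside 16.6% of all probes called lower and 17.6% called higher. The median over all probes was 0.11. Slc25a37, the mitochondrial iron importer mitoferrin, was lower by 1.25 in the arrays labelled PMSG (limma adjusted p = 0.0193). It was above background on 4 control arrays and only 2 PMSG arrays, so this size is partly set by background, and it did not pass without control array 3 (limma adjusted p = 0.0508). Ovarian cells also make heme for their steroid enzymes, and many of these genes are not particular to red cells.

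Red cell membrane genes apart from the members gave 0 lower and 2 higher of 13 by limma, also at an unadjusted p under 0.05, with a median of 0.13. Epb49, which encodes dematin, was higher by 0.65 (limma adjusted p = 0.00626), and Xk gave 0.60 without passing (limma adjusted p = 0.113).

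Erythroid transcription and signalling genes were split, with 2 lower and 2 higher of 10 and a median of 0.09. Nfe2, a factor of red cell and platelet precursors, was lower by 2.82 in the arrays labelled PMSG (limma adjusted p = 1.65e-04). Lmo2, a bridging protein of transcription factor complexes, was lower by 1.16 in those arrays (limma adjusted p = 0.00176). Epor, the erythropoietin receptor, was higher by 0.93 in them (limma adjusted p = 0.0103). Gata1 gave -0.29 and Klf1 -0.55, and neither passed. Of 13 other erythrocyte proteins 3 were lower and 1 higher, among them Car2 at -0.92 (limma adjusted p = 0.0431) and Cat, catalase, at -0.69 (limma adjusted p = 0.0217). Trim10 gave 1.09 without passing.

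**Figure D5:**
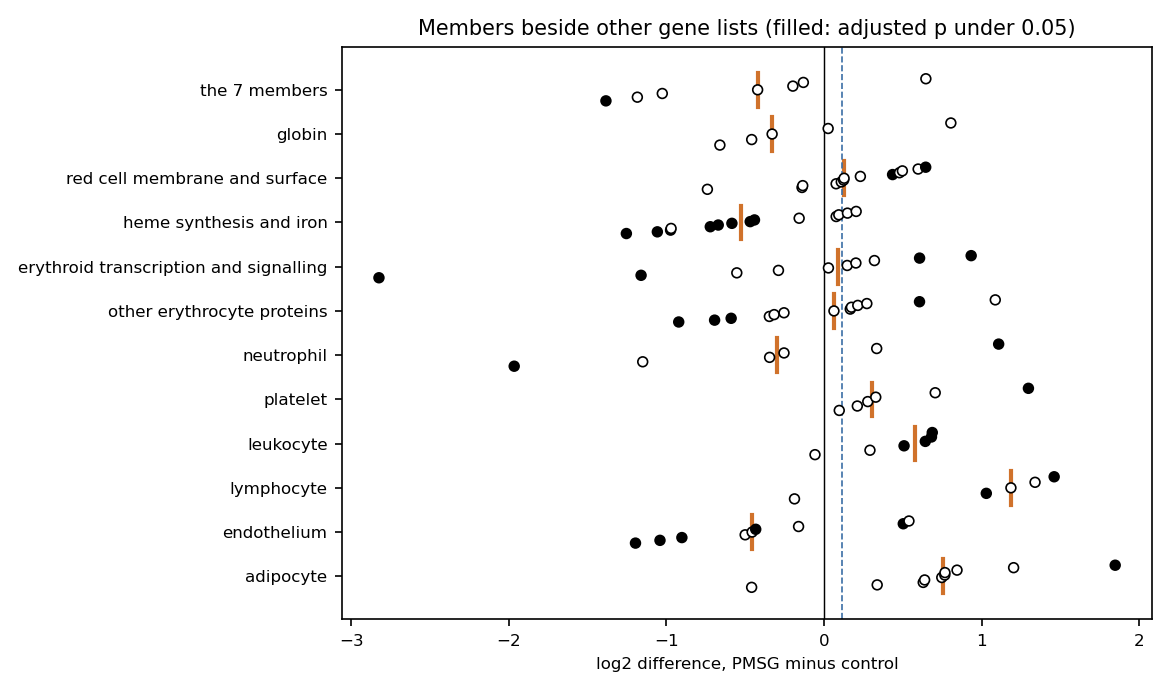
Difference between labels (x axis, log2, PMSG minus control) for the 7 members and the tested genes of 11 other lists, members left out of the others. Filled circles passed limma's adjusted threshold of 0.05, orange bars are list medians, and the dashed line is the median of all probes at 0.11. The heme synthesis and iron list has 8 filled circles, all below 0, and the members have 1.

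Genes of other blood cells moved in both directions by limma. Leukocyte genes had 0 lower and 4 higher of 6, also at an unadjusted p under 0.05, with Ptprc higher by 0.69, Aif1 by 0.68 and Laptm5 by 0.64. Lymphocyte genes had 0 lower and 2 higher of 5 by limma (0 and 3 unadjusted), with Cd3g higher by 1.46. Platelet genes had 0 lower and 1 higher of 6 by limma (0 and 2 unadjusted), Itga2b at 1.30. Neutrophil genes had 1 lower, S100a8 at -1.97, and 1 higher, Ltf at 1.11, of 6. Endothelial genes, which line the vessels that hold blood, had 4 lower and 1 higher of 9, with Tek at -1.20, Flt1 at -1.04 and Eng at -0.90. Adipocyte genes had 0 lower and 1 higher of 10 by limma, also unadjusted, Cidea at 1.85. Without control array 3 the lower calls went from 3 to 1 for other erythrocyte proteins and from 1 to 0 for neutrophil genes. The higher calls went from 2 to 1 for erythroid transcription and signalling, from 2 to 3 each for membrane and lymphocyte genes, and from 1 to 2 each for platelet and adipocyte genes.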

How the data were processed

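Total RNA (500 ng) was labelled with Cy3 from an oligo-dT primer, per the labels' protocols. Spot intensity, background-subtracted, and flags were deposited by the authors as scanner files from Agilent Feature Extraction 11.5.1.1, which name rn4 (RGSCv3.4), per the file headers. Their deposited table of log2 values matched log2 signal minus the 75th percentile of each array, with r above 0.99 for 8 of 8 arrays. All arrays lay on 1 slide and were scanned on 1 day.

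Outlier spots were left out, spots of a probe averaged, and log2 signal minus the 75th percentile tested with limma 3.58.1 in R 4.3.3, where probes were above background on at least 4 arrays. The fit was tested on simulated data. Of a gene's probes the brightest stands for it. The number of arrays limits the precision. Named genes are all members, the 3 of each list with the largest difference, all globins, ovary markers as a tissue check and the 8 genes most like the members, with further list genes chosen after their values were seen. Some genes that this rule names are not reported here. Members and lists were chosen with earlier results of these data known. Alternatives were background correction, scaling, filters, outlier spots, deposited values, weights, blocks and leaving arrays out.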

Additional observations from a re-analysis of the deposited data

Results flagged for a closer look

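Among 22 groups of 4 arrays examined, 2 held an array far from the others, and chance marks about 1 in 20 such groups. For the 5′ probe of Hba-a2 in control, array 3 at 2.69 stood above the nearest at 1.79, a gap of 0.849 of the whole range. For the 3′ probe of Hbb in control, array 4 at 6.03 stood below the nearest at 6.33, a gap of 0.876 of the range.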

How the results depend on the processing

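Alas2 kept its direction and its call under all 21 alternatives run, from -1.55 to -1.19 (limma adjusted p 5.84e-04 to 0.00721, and 0.00858 in the linear model without moderation). The number of member genes called was 1, and 2 with normexp background correction (Ahsp), quantile normalization (Hba-a2), median centring (Ahsp), and without control array 3 and PMSG array 4 (Rhag), the last chosen after seeing the data. Leaving out each array in turn gave 1 to 2, the 2 without control array 3 (Rhag). The Rhag calls were higher in the arrays labelled PMSG, with no remaining control array above background. The Ahsp and Hba-a2 calls were lower. A replicate block gave 2 members (Ahsp, limma adjusted p = 0.0322) and 7346 probes against 8658, but same-numbered arrays correlated from -0.02 to 0.18, so the numbers do not pair the arrays. Over all probes, leaving out each array gave 6552 to 11382 calls. The Hbb 3′ difference ran from -0.23 to 0.0077 as each array was left out, above 0 without PMSG array 4, and was 0.042 without both arrays. Epb42 ran from -0.68 to 0.064, above 0 without control array 3, and was 0.15 without both. The causes were not tested. The median pair correlation ran from 0.490 to 0.791. Rhag and Epb42 are limited by signal over background.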
